A study of Bos taurus with 20 samples.

Results

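The animals described here are the 10 bulls whose title number begins with S, out of 20 bulls in the series. They were chosen by that letter alone, and 5 of them were labelled high and 5 low in intramuscular fat (IMF). What the letter means is not stated in the labels. All animals were F2 crosses of Holstein dairy cattle with Charolais beef cattle, and the tissue was Musculus longissimus dorsi, the long muscle of the back. Total RNA of each animal was hybridised to 1 Affymetrix cattle array. The other 10 bulls, also 5 high and 5 low, came from the same cross and the same muscle and carry title numbers without the letter. The comparison asks which transcripts differ in abundance between muscle with much and with little IMF.

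IMF consists of fat cells that lie between muscle fibres and muscle bundles, embedded in connective tissue that fibroblasts make. Fat cells build fatty acids from acetate and glucose through ACLY, ACSS2, FASN and SCD, join them to glycerol through enzymes such as DGAT2, and keep the product in droplets coated by proteins such as CIDEC. A piece of such muscle holds fibres, fat cells, fibroblasts, vessels and blood, so a lower signal can come from fewer cells of a type or from less RNA per cell, and bulk samples cannot tell these apart.

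The arrays differed before any gene was compared. The median signal of all probe sets ran from 51.6 to 66.6 over the S arrays. High IMF replicates 1 and 4 were the dimmest, at 51.6 and 56.6, and the low IMF arrays lay between 61.3 and 64.9. The first principal component held 32.7% of the variance and placed these same high IMF replicates 1 and 4 at 41.7 and 43.5, with the other 8 arrays between -30.5 and -1.07. ALB, the gene of the liver's main plasma protein, gave signals of 4871, 469, 11888, 308 and 59753 in high IMF replicates 1 to 5 and of 245 to 440 in the low IMF animals. High IMF replicates 1, 3 and 5 are therefore called the arrays of high ALB signal. MYH7, the myosin heavy chain of slow muscle fibres, read between 11641 and 16970 in all 10 animals.

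No probe set passed the test. Of 24016 probe sets, 0 (0%) reached a Benjamini-Hochberg adjusted p of 0.05 in limma, and the lowest adjusted p was 0.540. An unadjusted limma p under 0.05 was found for 438 probe sets (1.82%) that were higher and 942 (3.92%) that were lower in high IMF. An unpaired t-test also left 0 probe sets past the adjusted threshold. Every log2 difference below is the mean of the high minus the mean of the low IMF animals on the scale of log2(signal + 1), and none passed after adjustment. The adjusted limma p was 0.813 for most of the named genes and at least that for the rest.

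The balance of higher and lower genes moved with the dim arrays. Each gene was represented by its brightest probe set, and a gene counted as measured if that probe set was among the upper 60% by mean signal over the S arrays. Of 7075 measured genes, 33.7% were higher and 66.3% were lower in high IMF, with a median difference of -0.07. After each array was centred on its median, 47.4% were higher and the median was -0.01. With the 2 dimmest arrays left out, 54.4% were higher and the median was 0.02.

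**Figure D1:**
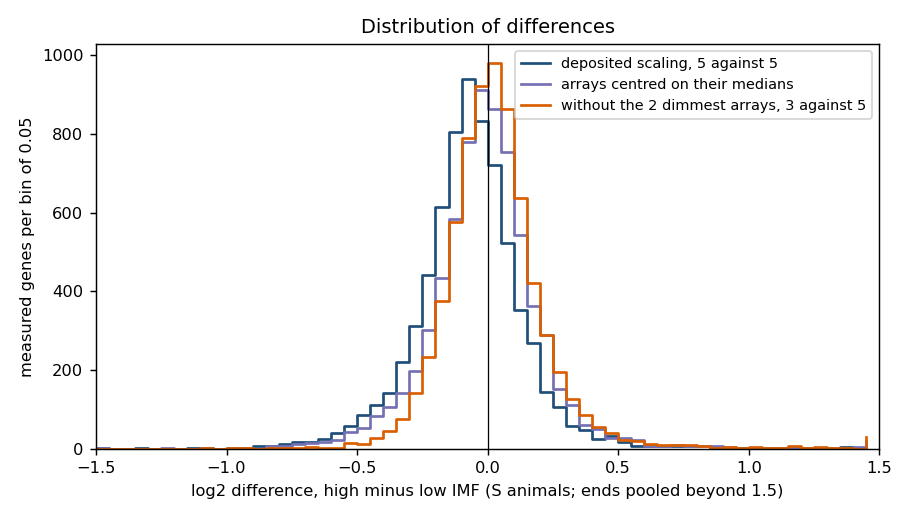
Number of measured genes per bin of 0.05 log2 units (vertical axis) against the log2 difference of high minus low IMF in the S animals (horizontal axis), for the deposited scaling, for arrays centred on their medians and without the 2 dimmest arrays. The deposited curve lies to the left of the others, with 33.7% of 7075 genes above 0 against 47.4% and 54.4%.

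Genes that fat cells use had wide differences between high and low IMF. THRSP, which promotes fatty acid synthesis, gave signals of 1186, 363, 677, 132 and 3107 in high IMF replicates 1 to 5. In low IMF replicates 1 to 5 it gave 412, 73.6, 58.8, 16.1 and 160. The groups overlapped: low IMF replicate 1 stood above high IMF replicates 2 and 4, and low IMF replicate 5 above high IMF replicate 4. The difference was 2.91 log2 units (SE 0.96, 95% interval 0.77 to 5.05), or 7.51-fold, with an exact permutation p of 0.0397.

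CIDEC, a lipid droplet protein, read 7171, 1714, 3094, 767 and 8556 in the high IMF animals in the same order. The low IMF animals read 4160, 486, 713, 126 and 751. FABP4, the fatty acid carrier of fat cells, read 6075, 1703, 2669, 679 and 7902 against 4076, 375, 1030, 107 and 887. Both genes had the same animals at the ends: high IMF replicates 5 and 1 stood on top, low IMF replicate 1 came next, and low IMF replicate 4 was lowest. In between, high IMF replicate 4 stood above low IMF replicates 3 and 5 for CIDEC and below them for FABP4. The differences were 2.16 (SE 0.92) for CIDEC and 1.99 (SE 0.96) for FABP4, and their exact permutation p-values were 0.0714 and 0.103. PCK1, which supplies the glycerol backbone in fat cells and makes glucose in liver, differed by 2.03 (SE 0.69). The droplet-bound inhibitor of fat breakdown G0S2 differed by 1.19 (SE 0.58).

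**Figure D2:**
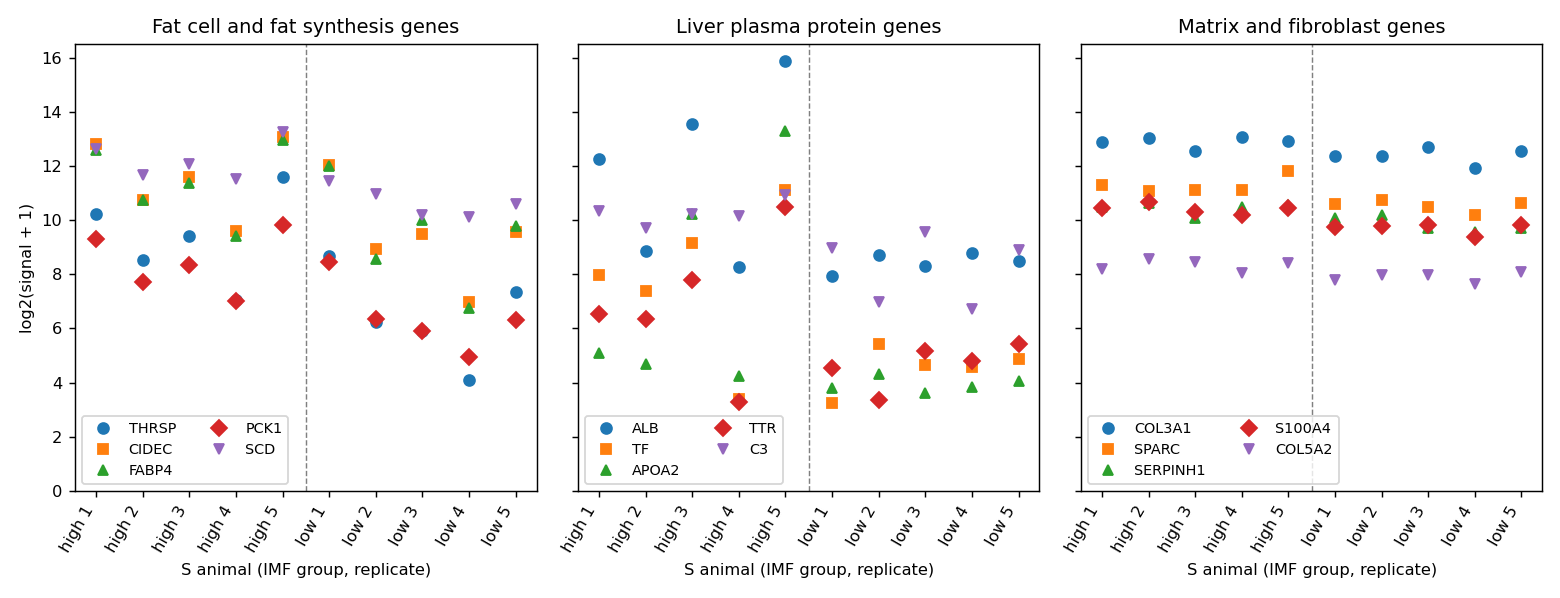
Signal on the log2(signal + 1) scale (vertical axis) of 5 fat cell and fat synthesis genes, 5 plasma protein genes and 5 matrix and fibroblast genes in each of the 10 S animals (horizontal axis), 1 point per array, with a dashed line between the IMF groups. Low IMF replicate 1 sits among the high IMF animals for THRSP, CIDEC and FABP4, and ALB exceeds its low IMF range most in high IMF replicates 1, 3 and 5.

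Of 22 fat cell markers listed, 17 were on the array and 15 were measured, and 12 of these 15 were higher in high IMF (background 33.7%). Their median difference was 0.65, beside -0.07 over all measured genes. TRARG1, a protein of the insulin-regulated glucose transporter vesicles, differed by 1.69 (SE 0.73). RBP4, the retinol carrier, differed by 1.43 (SE 0.58) and CIDEA, another droplet protein, by 0.77 (SE 0.44). RBP4 also belongs to the liver list below, and differed by 0.50 without the arrays of high ALB signal. The fat cell list further shares THRSP with the synthesis list and CIDEA with the droplet list, so these lists are not independent. The hormone gene RETN differed by 0.65 (SE 0.21). The fat hormones ADIPOQ and LEP were too dim to count as measured, and the brightest probe set of each differed by 1.26 (SE 0.66) and 1.03 (SE 0.52). PPARG, the master regulator of fat cell formation, was also too dim to count as measured and read 24.4 to 47.1 in high and 15.98 to 29.7 in low IMF, a difference of 0.48 (SE 0.23). The lipases behaved less evenly: LIPE differed by 0.60 (SE 0.55) and LPL, which frees fatty acids from blood lipids, by 0.19 (SE 0.44).

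The fat cell values moved with the arrays of high ALB signal. The mean log2 value over the 15 markers was 9.75, 9.31 and 10.28 in high IMF replicates 1, 3 and 5, and 8.97 and 8.40 in high IMF replicates 2 and 4. Low IMF replicate 1 reached 9.42 at an ALB signal of 245, and the other low IMF animals lay between 7.71 and 8.43. With the 3 arrays of high ALB signal left out, 2 high IMF animals remained and the median difference of the list was 0.11. In that comparison THRSP differed by 1.33, CIDEC by 0.77 and FABP4 by 0.65, while LIPE, LPL and CIDEA differed by -0.36, -0.55 and -0.02. Single animals moved the list median both ways: it was 0.37 without high IMF replicate 5 and 0.94 without low IMF replicate 1. Whether liver transcripts had a part in these differences was not tested.

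Fatty acid and triglyceride synthesis followed, and SCD was its clearest gene. SCD, which places the double bond in monounsaturated fatty acids, read 6364, 3273, 4331, 2951 and 9691 in high IMF and 2797, 2017, 1154, 1108 and 1561 in low IMF. Every high IMF animal stood above every low IMF animal. The difference was 1.57 (SE 0.37, 95% interval 0.75 to 2.39) or 2.96-fold, with an exact permutation p of 0.00794, the smallest that 252 splits of 5 against 5 can give. It was 1.62 after centring, 1.67 without the 2 dimmest arrays and 0.94 without the arrays of high ALB signal.

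Of 26 measured synthesis genes, 20 were higher (background 33.7%). An unadjusted limma p under 0.05 was found for 8 higher and 2 lower genes (background 1.29% and 4.07% of measured genes). The median difference of the list was 0.24. DGAT2, the last step of triglyceride synthesis, differed by 1.35 (SE 0.57). FASN, the fatty acid synthase, read 2985, 1910, 3649, 1603 and 7005 in high IMF and 2765, 1465, 1407, 901 and 1651 in low IMF, a difference of 0.96 (SE 0.41). ACLY, which makes acetyl-CoA from citrate, differed by 0.84 (SE 0.29), and ACSS2, which makes it from acetate, by 0.81 (SE 0.33). TKT and PGD of the pentose phosphate pathway, which supplies NADPH, differed by 0.83 (SE 0.41) and 0.58 (SE 0.22), and the elongase ELOVL5 by 0.77 (SE 0.35).

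The differences of these synthesis genes were smaller when the arrays of high ALB signal were left out: FASN differed by 0.19, DGAT2 by 0.18, ACSS2 by 0.17 and ACLY by 0.30, and the list median was 0.13. Other members of the list were lower or near 0. ACACB, the acetyl-CoA carboxylase that makes the inhibitor of fatty acid entry into mitochondria, differed by -0.35 (SE 0.12). IDH1 differed by -0.26 (SE 0.11), but 2 dimmer probe sets of this gene differed by 0.61 and 0.64. SREBF1, the transcription factor that drives the pathway, differed by -0.02 (SE 0.15), a value whose sign turned after centring.

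Cholesterol genes followed, with 11 of 13 measured members higher (background 33.7%) and a median of 0.16. Without the arrays of high ALB signal 9 of 13 were higher, beside 2274 of the 7075 measured genes, and the median was 0.07. INSIG1, which holds the sterol sensor in place and is itself a target of that pathway, read 309, 425, 556, 436 and 1173 in high IMF against 394, 345, 279, 206 and 163 in low IMF. It differed by 0.97 (SE 0.36), and the dim high IMF replicate 1 was the 1 high animal inside the low range. The sterol synthesis gene MSMO1 differed by 0.41 (SE 0.23) and the regulator SREBF2 by 0.29 (SE 0.15). HMGCS1, an early enzyme of the pathway, differed by 0.02 (SE 0.13).

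Genes of fat breakdown were mixed. Of 11 measured lipolysis and droplet genes 8 were higher (background 33.7%), with a median of 0.22, which was -0.02 without the arrays of high ALB signal. PNPLA2, the lipase that starts triglyceride breakdown, was lower by 0.26 (SE 0.13), with 1502 to 1968 in high and 1722 to 2436 in low IMF. PLIN5, which ties droplets to mitochondria in muscle fibres, was lower by 0.54 (SE 0.29). Fatty acid uptake genes had a median of 0.06 with 8 of 11 higher (background 33.7%). Adipogenic regulators and preadipocyte markers had a median of -0.03 with 4 of 11 higher, near the background of 33.7%.

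Genes of liver plasma proteins and enzymes showed a difference in the S animals that rested on few arrays. Of 15 measured liver genes 14 were higher (background 33.7%), and the median difference was 1.28. APOA2, an apolipoprotein, read 33.0, 24.6, 1199, 18.1 and 9936 in high IMF and 11.2 to 19.1 in low IMF. TF, the iron carrier transferrin, read 253, 167, 566, 9.57 and 2227 in high IMF and 8.46 to 42.4 in low IMF. For AHSG and SERPINA1 the signal was high in 1 animal: high IMF replicate 5 read 8566 and 6722, while the other 9 animals read 362 to 498 for AHSG and 26.0 to 57.3 for SERPINA1. Further probe sets named AHSG disagree, with differences of 1.85 (SE 0.84), -0.03 (SE 0.14) and -0.01 (SE 0.14).

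The mean log2 value of the liver list was 7.07, 6.87, 7.88, 6.13 and 10.18 in high IMF replicates 1 to 5 and 6.13 to 6.37 in the low IMF animals. High IMF replicate 4 therefore lay at the level of the low IMF group, and replicate 2 above it without a high ALB signal. TF differed by 3.25 (SE 1.18), APOA2 by 3.58 (SE 1.61), TTR, the thyroxine carrier, by 2.23 (SE 1.08) and the haem carrier HPX by 0.77 (SE 0.33). With the arrays of high ALB signal left out, TF differed by 0.84, APOA2 by 0.54, TTR by 0.17 and HPX by 0.19, and the list median was 0.17. The array carried 9 probe sets named ALB that disagree: the difference was 3.31 (SE 1.28) on the probe set used for the ALB signal above and 0.10 (SE 0.11) on the brightest one.

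C3, the central complement protein made by liver and by fat cells, stood apart from that pattern. It read 1296, 841, 1199, 1141 and 1954 in high IMF and 496, 124, 760, 104 and 478 in low IMF. All high IMF animals lay above all low IMF animals, including high IMF replicates 2 and 4, whose ALB signals were 469 and 308. The difference was 2.05 (SE 0.55, 95% interval 0.84 to 3.27) or 4.15-fold, and it was 1.71 without the arrays of high ALB signal.

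High and low IMF animals did not overlap for 63 probe sets that were higher (0.262% of all) and 200 that were lower (0.833%). Among measured genes these were 13 higher (0.184%) and 86 lower (1.22%). After centring, the groups were apart for 18 higher (0.254%) and 59 lower genes (0.834%), which held 9 of the 13 and 39 of the 86. The genes named next are the 12 with the largest difference in each direction among measured probe sets of 1 symbol without overlap. Complete separation fixes their exact permutation p at 0.00794, so that p adds no support to genes chosen this way. By chance, 1 of the 252 splits separates a probe set fully in each direction.

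Among the higher ones, CKB, the creatine kinase of brain and of many other cells outside muscle fibres, read 207, 121, 258, 159 and 537 in high IMF and 83.8 to 107 in low IMF. Its difference was 1.20 (SE 0.34), or 0.52 without the arrays of high ALB signal. PYCR1, the last enzyme of proline synthesis, differed by 0.72 (SE 0.21). SERPINF1, a secreted serpin of fat and connective tissue, and SERPIND1, heparin cofactor II, differed by 0.48 (SE 0.18) and 0.47 (SE 0.11). SSLP1 and PLAC9 differed by 0.69 (SE 0.17) and 0.50 (SE 0.15). A brighter probe set of PLAC9 overlapped between the groups and differed by 0.30 (SE 0.21). MAP2K2, a kinase of the MAP kinase cascade, differed by 0.69 (SE 0.20) on a dim probe set, while 3 brighter ones differed by 0.08 to 0.15.

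**Figure D3:**
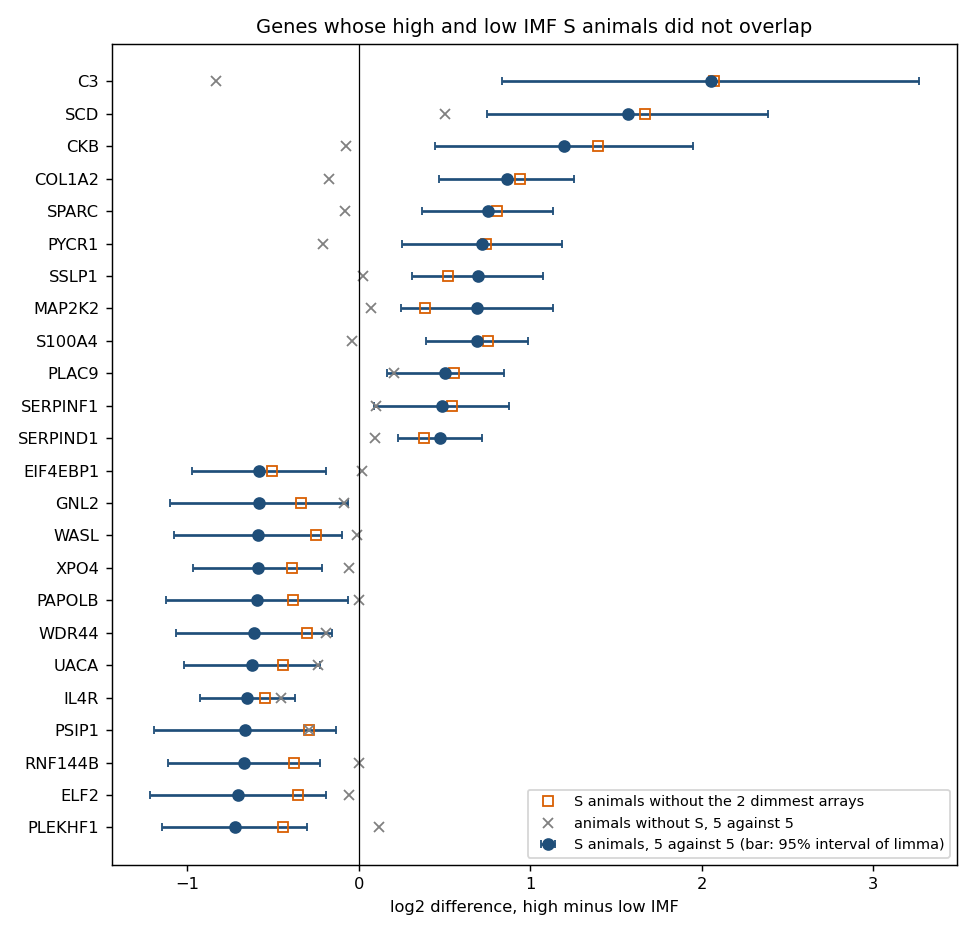
Log2 difference of high minus low IMF (horizontal axis) for 24 named genes whose high and low IMF S animals did not overlap on the probe set shown. Given with it are the 95% limma interval, the value without the 2 dimmest arrays (open squares) and the difference in the animals without S (crosses). Most higher genes keep their value without the dim arrays, as SCD does at 1.67, and the lower genes lie closer to 0 there, as PSIP1 does at -0.29.

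Connective tissue genes are described next. SPARC, a collagen-binding matrix protein, read 2481, 2150, 2227, 2235 and 3602 in high IMF and 1553, 1726, 1448, 1159 and 1573 in low IMF. S100A4, a calcium-binding protein of fibroblasts, read 1378, 1606, 1252, 1160 and 1380 against 856, 872, 907, 661 and 907. Neither gene overlapped between the groups. The differences were 0.75 (SE 0.17, 95% interval 0.37 to 1.13) for SPARC and 0.69 (SE 0.13, 95% interval 0.39 to 0.99) for S100A4. With only high IMF replicates 2 and 4 kept in that group they were 0.57 and 0.71. Since the groups do not overlap, the sign of these values was fixed.

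Of 31 measured matrix and fibroblast genes 26 were higher in high IMF (background 33.7%). An unadjusted limma p under 0.05 was reached by 9 of them in the higher direction (background 1.29%) and 0 in the lower (background 4.07%), and 0 passed after adjustment. The median difference was 0.33, and it was 0.39 after centring, 0.32 without the 2 dimmest arrays and 0.30 without the arrays of high ALB signal. Leaving out 1 animal gave medians of 0.18 to 0.40, and the lowest came without low IMF replicate 4. That animal had the lowest list mean, 9.06, and the other low IMF animals lay between 9.51 and 9.70. The lowest high IMF animal lay at 9.50.

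The fibrillar collagens showed this pattern on several probe sets. COL3A1, the collagen of loose connective tissue, read 7592, 8456, 5982, 8679 and 7836 in high IMF and 5243, 5213, 6635, 3862 and 6033 in low IMF. Low IMF replicates 3 and 5 reached into the high range, and a second probe set differed by 0.60 beside 0.53 (SE 0.17) here. COL1A2 was apart between the groups on the dimmer of its probe sets, with 0.86 (SE 0.18), and overlapped on the brighter one, with 0.51 (SE 0.19). COL1A1, its partner chain, differed by 0.50 (SE 0.18) and COL5A2, which sets fibril width, by 0.45 (SE 0.14).

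SERPINH1, the collagen chaperone, differed by 0.59 (SE 0.16), with 1074 to 1567 in high and 747 to 1175 in low IMF. VIM, the intermediate filament of cells such as fibroblasts, differed by 0.55 (SE 0.24), and FN1, the cell adhesion protein fibronectin, by 0.48 (SE 0.19). The small proteoglycans that bind collagen were less separated, with 0.49 (SE 0.28) for LUM and 0.25 (SE 0.20) for DCN.

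The 12 lower genes with the largest differences had no common list. PLEKHF1, a protein of endosomes and lysosomes, read 41.7, 70.3, 70.0, 40.6 and 62.0 in high IMF and 87.5, 116, 86.5, 86.1 and 87.2 in low IMF. Its difference was -0.72 (SE 0.19). IL4R, the receptor chain for interleukins that act on immune cells and fibroblasts, read 66.9, 67.9, 69.7, 54.1 and 80.3 against 95.5, 111, 99.9, 111 and 116, a difference of -0.65 (SE 0.12). Both read lowest in high IMF replicate 4, 1 of the dim arrays.

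The other lower genes were the transcription factor ELF2 (-0.70), the ubiquitin ligase RNF144B (-0.67), the chromatin protein PSIP1 (-0.67), UACA (-0.62), WDR44 (-0.61), the poly(A) polymerase PAPOLB (-0.59), the nuclear export receptor XPO4 (-0.59), the actin assembly factor WASL (-0.59), the nucleolar GTPase GNL2 (-0.58) and EIF4EBP1 (-0.58). A brighter probe set of XPO4 overlapped between the groups and differed by -0.49 (SE 0.17). Without the 2 dimmest arrays ELF2, PSIP1, WDR44 and WASL differed by -0.36, -0.29, -0.30 and -0.25. GNL2 and PAPOLB were set low in high IMF replicate 1, with 29.9 and 36.1 against at least 68.9 and 81.2 in the other high IMF animals. For PAPOLB the groups overlapped after centring. The part of the dim arrays in these differences was not tested.

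Genes of muscle protein breakdown were lower in 12 of 13 measured members (background 66.3%), with a median of -0.18. The median was -0.12 after centring, -0.21 without the 2 dimmest arrays and -0.28 without the arrays of high ALB signal. EIF4EBP1, the brake on protein synthesis that insulin and amino acids release, read 404, 326, 379, 228 and 338 in high IMF and 559, 560, 540, 409 and 422 in low IMF. The groups did not overlap, by a margin of 404 against 409, and they overlapped after centring. SESN1, a stress protein that restrains the amino acid sensing kinase mTORC1, read 379 to 566 in high and 505 to 1052 in low IMF. Its difference was -0.79 (SE 0.21), but another probe set of SESN1 differed by 0.23 (SE 0.14).

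KLF15, a glucocorticoid-responsive regulator of amino acid breakdown, differed by -0.35 (SE 0.12), with 1020 to 1285 in high and 1221 to 1640 in low IMF. The muscle ubiquitin ligase genes FBXO40 and FBXO32 differed by -0.48 (SE 0.30) and -0.27 (SE 0.25). FBXO32 read 4549 in high IMF replicate 1 and 1541 to 2913 in the others of that group, beside 2961 to 3149 in low IMF. FOXO4, of the family that switches such genes on, differed by -0.21 (SE 0.12).

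Signals of growth factor pathways were mixed. SOCS2, which growth hormone induces and which limits its signal, read 23.7, 66.2, 101, 49.3 and 83.7 in high IMF and 126, 87.3, 215, 141.2 and 191 in low IMF. The difference was -1.31 (SE 0.39), with an exact permutation p of 0.0159, and it was -0.81 without the 2 dimmest arrays. CISH, a related inhibitor, differed by -0.73 (SE 0.38). The growth factor IGF2 differed by -0.40 (SE 0.15) on its brightest probe set and by -0.27 and 0.38 on the others. The binding proteins IGFBP4 and IGFBP6 differed by 0.62 (SE 0.24) and 0.39 (SE 0.15). Over the 12 measured genes of the axis the median was 0.03.

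Amino acid transporters were mixed, with 4 of 7 measured members higher (background 33.7%) and a median of 0.01. The leucine transporters SLC43A1 and SLC43A2 had lower signals in high IMF. SLC43A1 read 98.5 to 119 in high and 125 to 184 in low IMF, without overlap, a difference of -0.44 (SE 0.13), and the groups overlapped after centring. SLC43A2 read 429, 368, 431, 780 and 549 against 1522, 510, 713, 939 and 815, a difference of -0.77 (SE 0.30). Of the clock genes, HLF was apart between the groups by a difference of -0.23 (SE 0.10), and NR1D1, the clock repressor, differed by -0.42 (SE 0.19).

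Slow fibre genes were lower in 11 of 13 members (background 66.3%) with a median of -0.14, which became -0.01 without the 2 dimmest arrays. MYH7 differed by -0.17 (SE 0.12), while a dimmer probe set of it differed by 0.06 (SE 0.10). The slow troponin TNNT1 differed by -0.26 (SE 0.15). PLN, the calcium pump inhibitor of slow fibres, was the widest of them: it read 311, 759, 1020, 425 and 406 in high IMF and 740.5, 1189, 775, 2428 and 1351 in low IMF. Its difference was -1.15 (SE 0.40), or -0.79 without the 2 dimmest arrays, and 2 more probe sets gave -1.05 and -1.07. Fast fibre genes had a median of -0.04.

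Oxidative phosphorylation genes were lower in 53 of 68 members (background 66.3%) with a median of -0.074, beside -0.066 over all measured genes. Without the dim arrays 44 of the 68 were higher (background 54.4%). Without the arrays of high ALB signal 7 of the 68 were higher, beside 2274 of the 7075 measured genes. Fatty acid oxidation genes had a median of -0.03 over 23 members, and -0.16 with 2 of 23 higher without the arrays of high ALB signal. PPARGC1A, the coactivator of mitochondrial genes, read 29.1, 78.9, 57.5, 34.8 and 59.1 in high IMF against 63.4, 83.3, 81.3, 111 and 120, a difference of -0.87 (SE 0.29). It was -0.47 without the 2 dimmest arrays, which held its lowest signals. The carnitine transferase CPT1B and the uncoupling protein UCP3 differed by -0.25 (SE 0.16) and -0.20 (SE 0.14).

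Among regulators of muscle cell identity, MEF2A was apart between the groups. It read 312, 499, 461, 394 and 450 in high IMF and 504, 632, 527, 715 and 736 in low IMF, a difference of -0.56 (SE 0.17), while a dimmer probe set differed by 0.22 (SE 0.15). Endothelial markers were lower in 12 of 12 measured members (background 66.3%) with a median of -0.26. After centring 11 of 12 were lower, beside 3720 of the 7075 measured genes, with a median of -0.20. Without the arrays of high ALB signal the median was -0.36. Without the dim arrays 2 of 12 were higher (background 54.4%) and the median was -0.09. ROBO4, ERG, SOX18 and PECAM1 differed by -0.42 (SE 0.20), -0.52 (SE 0.30), -0.40 (SE 0.22) and -0.27 (SE 0.19). Without the dim arrays these values were -0.22, -0.06, -0.29 and -0.16.

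**Figure D4:**
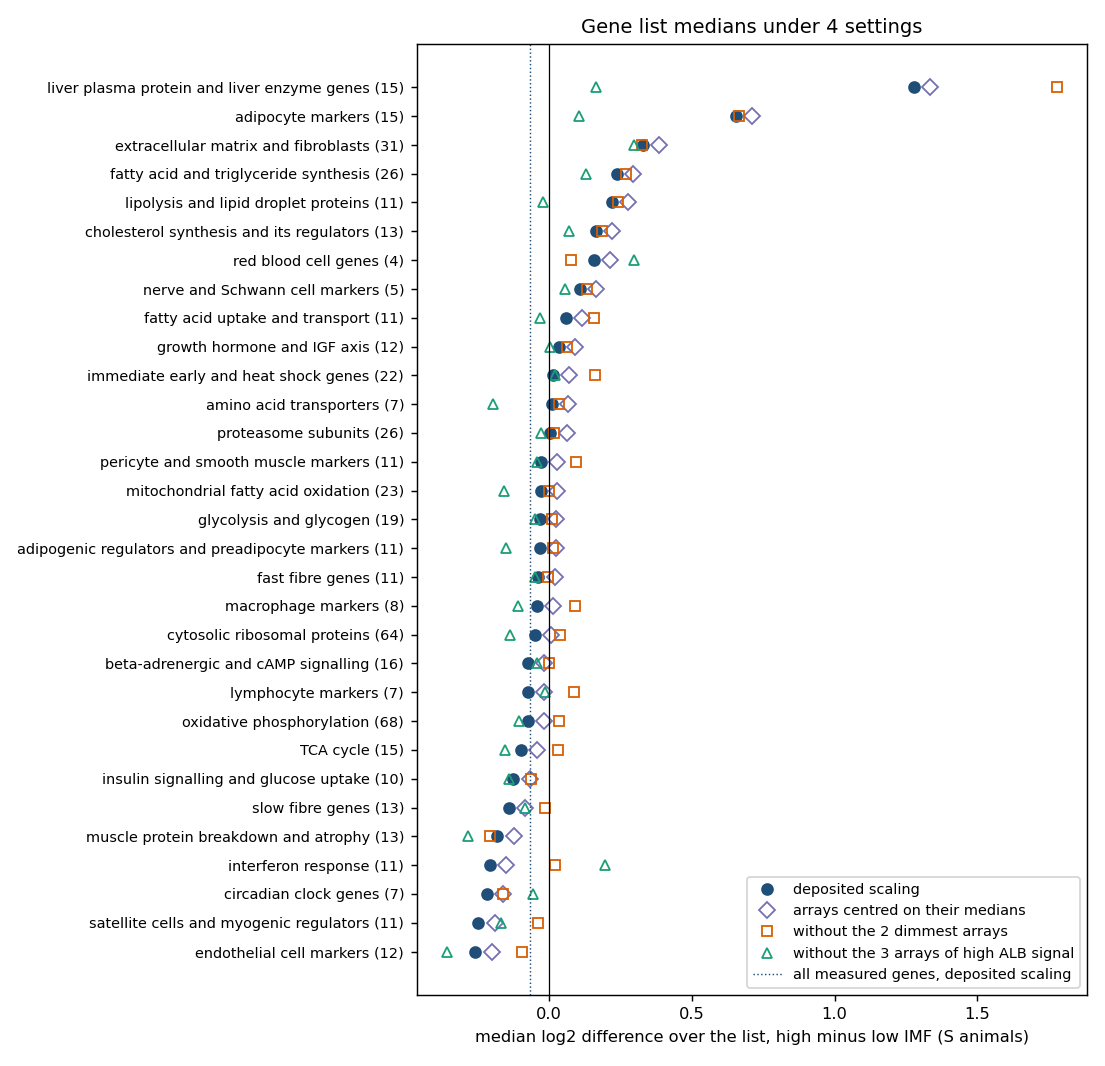
Median log2 difference of high minus low IMF in the S animals (horizontal axis) for 31 gene lists, with the number of measured genes in brackets, under the deposited scaling, after centring, without the 2 dimmest arrays and without the 3 arrays of high ALB signal. The dotted line marks the median of all measured genes, -0.07. The matrix list stays between 0.30 and 0.39, whereas the liver list runs from 0.17 to 1.78 and the fat cell list from 0.11 to 0.71.

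The animals without S gave a second, separate set of values for the same genes. In them THRSP differed by 1.995 (SE 0.67), CIDEC by 1.72 (SE 0.61) and FABP4 by 1.32 (SE 0.66) between high and low IMF. SCD differed there by 0.50 (SE 0.51), ACLY by 0.26 (SE 0.21) and INSIG1 by 0.49 (SE 0.37). The high ALB signal lay in 1 low IMF animal of that set, and its liver list had a median of -1.07. The fat cell and synthesis lists had medians of 0.16 and 0.17.

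Connective tissue genes as a list had a smaller median difference there, with 17 of 31 measured genes higher (background 56.7%). The median of that matrix list was 0.02. SPARC differed by -0.08 (SE 0.37), S100A4 by -0.04 (SE 0.50) and COL3A1 by 0.09 (SE 0.37), each with a larger standard error than in S animals. SERPINH1 differed by 0.31 (SE 0.22). C3 and CKB differed by -0.83 (SE 0.73) and -0.08 (SE 0.16). The muscle protein breakdown list had a median of 0.01 and KLF15 differed by 0.15 (SE 0.23). Of the 13 higher genes that were apart in S animals, 5 were higher in the others, and of the 86 lower genes 51 were lower there. As background for both counts, 4009 of 7075 measured genes (56.7%) were higher and the rest lower in the others.

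The difference between both sets was tested itself. In limma's interaction of IMF group and title series, 0 of 24016 probe sets (0%) passed the adjusted threshold, with a lowest adjusted p of 0.923, and 1109 (4.62%) had an unadjusted p under 0.05. The S minus other value was 2.88 (SE 0.97) for C3, 1.27 (SE 0.39) for CKB, 0.83 (SE 0.42) for SPARC, 0.73 (SE 0.54) for S100A4 and 1.06 (SE 0.66) for SCD, each with an adjusted p of 0.923 in limma. For THRSP it was 0.91 (SE 1.24) and for CIDEC 0.44 (SE 1.16). None of these genes was thus shown to differ between the sets of animals.

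**Figure D5:**
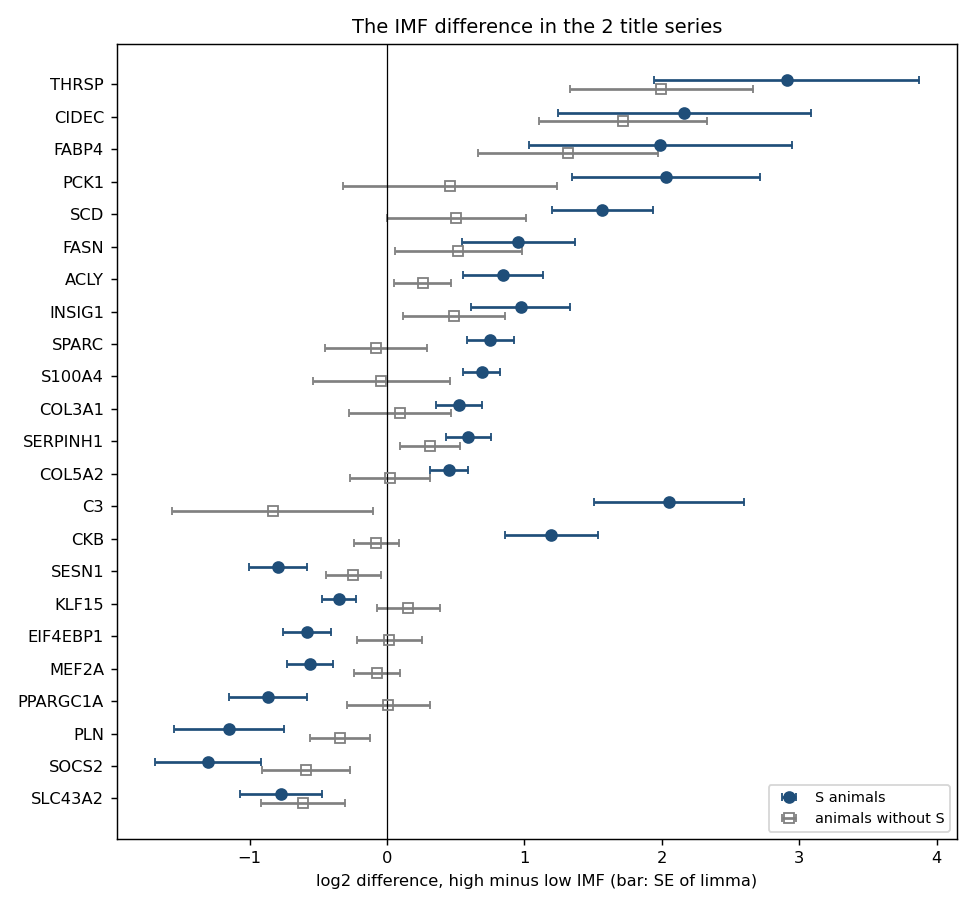
Log2 difference of high minus low IMF (horizontal axis) for 23 genes in the S animals (filled circles) and in the animals without S (open squares), 5 against 5 in each, with limma standard errors as bars. THRSP, CIDEC and FABP4 lie above 0 in both sets, and SPARC, S100A4 and CKB lie above 0 in the S animals and at -0.08, -0.04 and -0.08 in the others.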

How the data were processed

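Biotin-labelled cRNA was made from 0.5 ug of DNase-treated total RNA, per the labels' protocols. GCOS 1.1.1 and Affymetrix Expression Console 1.1 are named, per the submitters' processing notes. The sources used here do not give how probes were summarised. The deposited values are linear intensities per probe set, and their scaling was kept.

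Of 24128 probe sets 112 array controls were removed and 24016 were tested on log2(intensity + 1), a scale that understates changes of dim probe sets. The platform annotation, which can be old, gave 1 symbol for 13318 probe sets, several for 86 and none for 10724. In the RefSeq gene table of cattle 13283 were found, which changed 0 symbols. No coordinates or sequences were used.

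High and low IMF were compared with limma 3.58.1 in R 4.3.3 (lmFit and eBayes, two-sided, Benjamini-Hochberg at 0.05) over the 10 S arrays, and the interaction over 20 arrays. The code was tested on simulated data. Single genes were also compared by exact two-sided permutation over 252 splits. The series text names a paired t-test, but the labels pair no animals. Each of 31 gene lists was described by counts and medians, with no list test, and some genes belong to several lists. Named genes were the 12 per direction with the largest differences among measured probe sets whose groups did not overlap, list members without overlap, the 3 with the smallest p in 10 lists, and 8 fixed genes. COL3A1, COL5A2, COL1A1, FN1, VIM, LUM, DCN, DGAT2, ACSS2, TKT, PGD, ELOVL5, ACACB, IDH1, SREBF1, HMGCS1, TRARG1, CIDEA, LIPE, LPL, PLIN5, ADIPOQ, LEP, APOA2, AHSG, HPX, TTR, SERPINA1, the ALB probe set of high signal, FBXO32, FBXO40, FOXO4, IGF2, IGFBP4, IGFBP6, CISH, SLC43A2, NR1D1 and PECAM1 were chosen after their values were seen. The animals, lists and tests were chosen with earlier results of these data known. Alternatives were centring, quantile normalization, a pseudocount of 16, a variance trend, array weights, a t-test, all arrays in the fit, dim probe sets left out, and arrays left out. With 5 arrays a group, their number limits the precision.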

Additional observations from a re-analysis of the deposited data

Results flagged for a closer look

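Within groups of 5 S animals, 186 groups of values of the named genes were examined for a single animal far from the rest (a gap to its neighbour above 0.71 of the group's range), and 17 had one. Chance alone gives about 1 in 20 groups. All values here are log2(signal + 1).

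In the low IMF animals, replicate 4 was lowest for S100A4 (9.37), PLAC9 (5.78) and SERPINF1 (9.39) and highest for HLF (10.79). Low IMF replicate 1 was highest for the fat genes DGAT2 (9.08) and TRARG1 (9.14) and for the clock gene NR1D1 (8.05), and lowest for WASL (7.44). Low IMF replicate 2 was highest for PLEKHF1 (6.87) and replicate 5 for ELF2 (7.17).

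In the high IMF animals, replicate 5, which had the highest ALB signal, was highest for SPARC (11.81), AHSG (13.06) and SERPINA1 (12.71). The dim replicate 1 was lowest for PAPOLB (5.21) and GNL2 (4.95). High IMF replicate 3 was lowest for SERPINH1 (10.07) and highest for FBXO40 (8.32).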

How the results depend on the processing

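No probe set passed the adjusted threshold in the S animals under centring, quantile normalization, a pseudocount of 16, a variance trend, array weights, an unpaired t-test, all arrays in the fit or without the 2 dimmest arrays. Without the arrays of high ALB signal 4 passed, of which HDC (-3.63, adjusted limma p 0.00309) and P2RY14 (-2.74) have names and all were dim. Leaving out 1 animal gave 0 to 1 (1 without low IMF replicate 2). Probe sets of unadjusted p under 0.05 numbered 344 to 534 higher and 549 to 1365 lower with 1 animal left out, the lowest 549 and 596 without high IMF replicates 1 and 4. Probe sets without overlap numbered 89 to 162 higher and 239 to 404 lower, where fewer animals make separation easier. With the dimmest 40% left out, 206 were higher by unadjusted p and 22 without overlap. Without the 2 dimmest arrays 338 were lower by unadjusted p, and 453 higher and 322 lower had no overlap. After centring as well, a choice made after the data were seen, these were 530, 288 and 564. Without the arrays of high ALB signal, 1110 higher and 1340 lower of 24016 probe sets had no overlap, and the interaction gave 1. Leaving out the dimmest or the high ALB arrays keeps fewer high IMF animals, so chance alone separates many more probe sets. These counts without overlap therefore cannot be compared with those of all 10 arrays. Of 1952 alternative values of 93 named probe sets, 16 changed sign and 0 passed. Without the arrays of high ALB signal, the sign turned for CIDEA (-0.0216), LIPE (-0.36), LPL (-0.55), SERPINA1 (-0.00704), HMGCS1 (-0.0318) and SREBF1 (0.11). SREBF1 was also 0.0374 centred, 0.0203 after quantile normalization, 0.00709 without the dimmest arrays, and -0.10 to 0.0819 with 1 animal left out. The ranges with 1 animal left out were -0.15 to 0.525 for LPL and -0.0471 to 0.0895 for HMGCS1. Apart from the liver list, 12 alternative medians of lists lay further from the main value than the spread between animals. The causes were not tested. No paired analysis was possible because the labels pair no animals.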
